A study of Mus musculus with 8 samples.

Results

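The matrix metalloproteinases and their inhibitors were represented by 9 genes, chosen by symbol from the 55414 genes of the expression table: the proteinases *Mmp2*, *Mmp9*, *Mmp14*, *Mmp15* and *Mmp17*, and the inhibitors *Timp1*, *Timp2*, *Timp3* and *Reck*. RNA-seq gave their levels in 8 libraries of B16F10, a cultured melanoma line of the mouse, with 2 libraries in each of 4 groups. WT cells and CypD KO cells, in which *Ppif*, the gene of the mitochondrial protein cyclophilin D (CypD), had been disrupted with CRISPR/Cas9, were kept at 21% O2 for 24 h. Control cells, stably transfected with the empty pcDNA vector, and cells labelled CypD OE, stably transfected with pcDNA carrying CypD, were kept at 1% O2 for 24 h. The knockout cells were puromycin-selected clones, and the stably transfected cells were clones resistant to G418. The number of clones is not given in the sources used here. A difference between clones and one due to CypD therefore cannot be told apart, in CypD KO against WT or in CypD OE against Control. No vector is named for the WT cells. Oxygen and cell line changed together between the normoxic and the hypoxic groups, so that these cannot be told apart.

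Matrix metalloproteinases are zinc-dependent enzymes that cut collagens, fibronectin, laminins and other proteins of the extracellular matrix, and they are made as inactive precursors. MMP14 is anchored in the plasma membrane, where it cuts collagen and activates the precursor of MMP2; TIMP2 acts at both ends of that step, since it bridges MMP14 to the MMP2 precursor at moderate amounts and blocks MMP14 when in excess. TIMP1 is a secreted inhibitor that acts poorly on membrane-anchored proteinases, TIMP3 is held in the matrix and also blocks several ADAM and ADAMTS proteinases, and RECK is a membrane-anchored inhibitor. RNA levels do not show enzyme activity, which depends on activation and inhibition of the proteins.

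All values are TPM, the relative abundance of a gene's transcripts corrected for their length, so levels can be set side by side between genes. From the steps between low values, 1 fragment per 1000 bases of effective length came to 0.082 to 0.098 TPM, so each library held roughly 25700000 to 29800000 fragments from genes. WT had 50.68 and 49.99 TPM of *Ppif* and CypD KO had 10.44 and 12.11 TPM, a drop of 2.07 ± 0.07 (SE) on the log2 scale (limma adjusted p = 3.81e-06). Libraries labelled CypD OE had 50.29 and 49.28 TPM and Control had 44.59 and 42.25 TPM, a difference of 0.19 ± 0.07 that missed the threshold (limma adjusted p = 0.0794), and levels were no higher than in WT, so these libraries are named by their label throughout. *Vegfa*, a hypoxia-inducible gene chosen after its values were seen, was at 13.98 and 12.58 TPM in WT, 76.53 and 77.91 TPM in CypD KO and 58.82 and 58.33 TPM in Control, but at 14.87 and 15.09 TPM in libraries labelled CypD OE, although their label gives 1% O2. The 7 melanoma markers summed to between 12433 and 20984 TPM in every library. Of these markers, 1 was higher and 5 lower in CypD KO than in WT, and 1 higher and 4 lower in CypD OE than in Control. Control itself had 6 of the 7 higher and 0 lower than WT. The 4 markers lower in CypD OE than in Control were also lower than in WT, and are named after their values were seen. These were *Mitf* (-0.50), *Pmel* (-0.44), *Tyrp1* (-0.34) and *Dct* (-0.12; limma adjusted p = 0.000488, 0.000538, 0.000137 and 0.012). *Tyr*, *Mlana* and *Sox10* were higher in CypD OE than in WT, by 0.91, 0.43 and 0.21. In that comparison 27.7% of all genes tested passed. Over all genes tested, 48.4% passed in CypD KO against WT, 37.4% in CypD OE against Control and 24.2% in Control against WT. Of markers of other cells, *Dcn* and *Thy1* (fibroblasts), *Adgre1* and *Cd14* (macrophages) and *Cdh5* and *Tie1* (endothelium, whose 5 markers summed to at most 1.2 TPM) were listed at 0 in all 8 libraries. Others were present: the 8 fibroblast markers summed to between 9.23 and 37.27 TPM and the 6 macrophage markers to between 0.02 and 2.33 TPM. Both sums were highest in CypD KO, where *Postn* reached 34.77 TPM and *Lyz2* 1.85 TPM. Because cultures were measured in bulk, a larger share of cells with an RNA and more of it per cell cannot be told apart.

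*Mmp14* was by far the most abundant of the 5 proteinases. Its level was 101.46 and 106.00 TPM in WT, 154.51 and 149.72 TPM in CypD KO, 124.94 and 134.18 TPM in Control, and 110.23 and 104.60 TPM in libraries labelled CypD OE. Averaged over the libraries it stood at 123.2 TPM, above 90.5% of the 13526 genes tested. Libraries of CypD KO lay above those of every other group, and libraries labelled CypD OE lay below Control and overlapped with WT. *Mmp14* was 1.47 times as abundant in CypD KO as in WT, a rise of 0.55 ± 0.05 (SE) in log2(TPM + 1) (limma adjusted p = 0.000172). In libraries labelled CypD OE it fell by 0.27 ± 0.05 relative to Control (limma adjusted p = 0.00613). Control was higher than WT by 0.32 ± 0.05 (limma adjusted p = 0.00537). In the order of levels, CypD KO, Control, CypD OE and WT, only the last neighbours did not differ beyond their spread (0.05 on the log2 scale, limma adjusted p = 0.505).

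The other 4 of the 5 proteinases were scarce. *Mmp2*, gelatinase A and the main substrate of activation by MMP14, was at 1.60 and 3.64 TPM in WT, 5.11 and 3.21 TPM in CypD KO, 1.06 and 1.96 TPM in Control and 0.91 and 1.64 TPM in libraries labelled CypD OE. The pairs of libraries of a group differed so much that WT overlapped with CypD KO and Control with CypD OE. The differences of 0.55 ± 0.35 between CypD KO and WT and of -0.14 ± 0.35 between CypD OE and Control did not pass the test (limma adjusted p = 0.245 and 0.8), nor did that of -0.49 ± 0.35 between Control and WT (limma adjusted p = 0.361). Leaving out 1 library moved these differences to between 0.13 and 0.96, between -0.40 and 0.12 and between -0.91 and -0.07, none past the threshold. Between CypD KO and libraries labelled CypD OE, which differ in oxygen and vector as well, the difference in *Mmp2* was 1.18 ± 0.35, higher in CypD KO (limma adjusted p = 0.0302). These levels stood for approximately 31 to 170 fragments per library.

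*Mmp15*, a second membrane-anchored proteinase, was at 0.98 and 1.24 TPM in WT, 1.32 and 1.56 TPM in CypD KO, 1.62 and 0.55 TPM in Control and 1.01 and 0.80 TPM in libraries labelled CypD OE. Both Control libraries bracketed all the others, and no pair of groups passed the test, with differences of 0.21 ± 0.26 between CypD KO and WT and -0.08 ± 0.26 between CypD OE and Control (limma adjusted p = 0.546 and 0.839). *Mmp17*, whose product is tethered by a lipid anchor, never exceeded 0.70 TPM, and *Mmp9*, gelatinase B, never exceeded 0.10 TPM. *Mmp17* was at 0.40 and 0.70 TPM in libraries labelled CypD OE and at 0.22 and 0.06 TPM in Control, or approximately 30 and 53 against 14 and 4.1 fragments, and CypD KO (0.18 and 0.40 TPM) overlapped with WT (0.16 and 0.20 TPM). CypD KO libraries had 0.06 and 0.10 TPM of *Mmp9*, which the table lists at 0 for WT, and these levels stand for approximately 2.1 and 3.3 fragments, so a difference was not detectable at this depth. Neither gene reached 1 TPM, the minimum required in at least 2 libraries for testing. Fitted without that minimum, neither passed in any comparison, the nearest being *Mmp9* between CypD KO and WT (0.11 ± 0.04, limma adjusted p = 0.0784) and *Mmp17* between CypD OE and Control (0.44 ± 0.14, limma adjusted p = 0.0864).

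**Figure D1:**
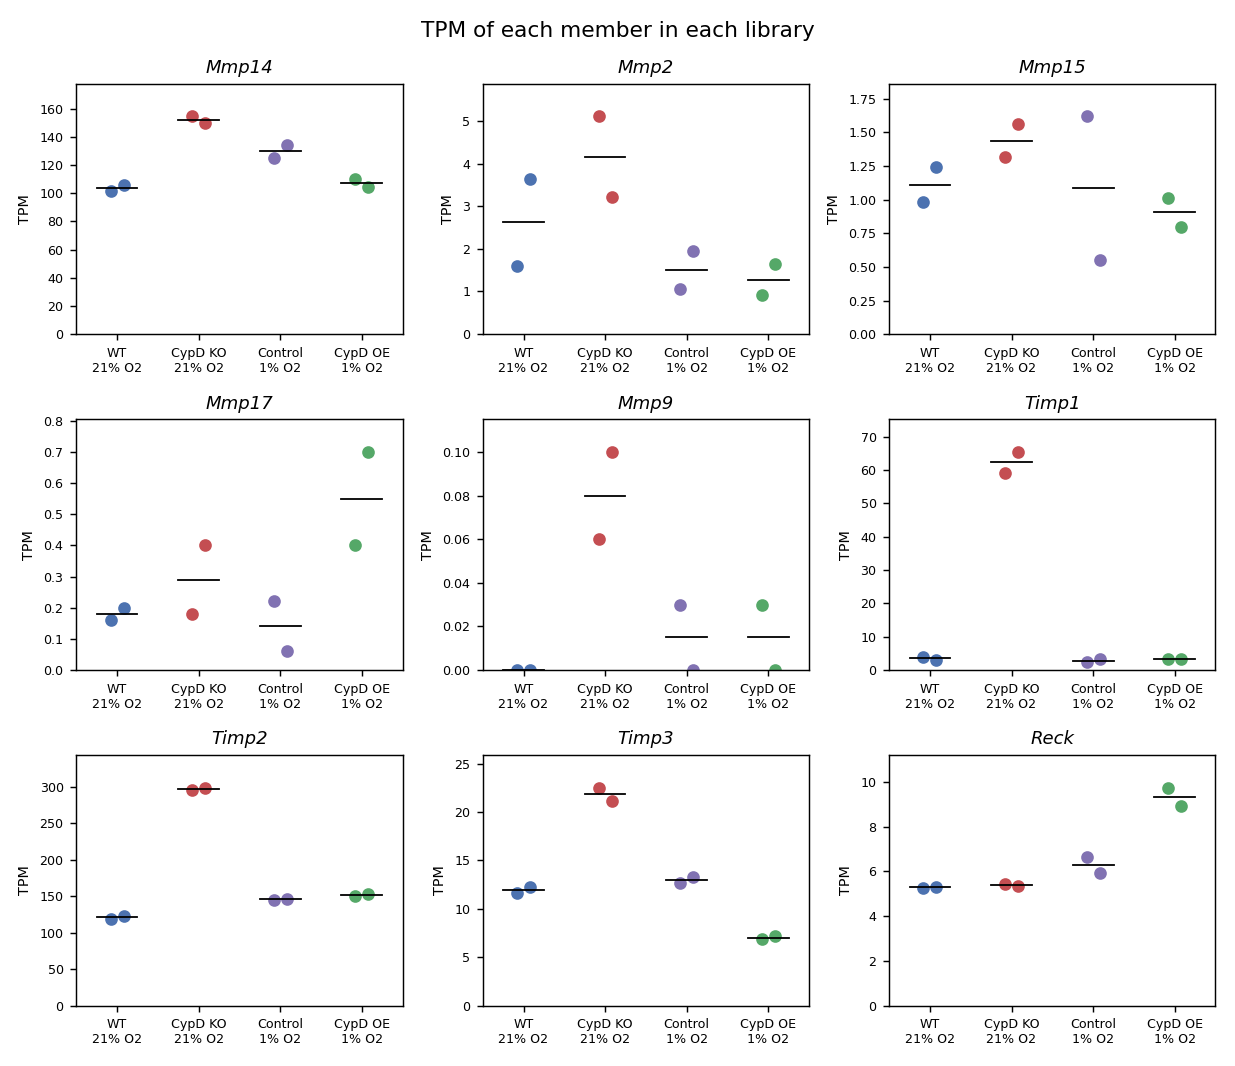
TPM of each of the 9 genes (vertical axes from 0, a separate scale for each gene) in the 2 libraries of each group (points), with the group mean (line). *Timp1* reached 59.21 and 65.34 TPM in CypD KO and stayed between 2.30 and 4.03 TPM in the other libraries, while *Reck* was highest in libraries labelled CypD OE.

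Among the inhibitors, *Timp1* differed most. WT libraries had 4.03 and 2.91 TPM of it, against 59.21 and 65.34 TPM in CypD KO. Control had 2.30 and 3.36 TPM and libraries labelled CypD OE had 3.14 and 3.26 TPM, so that both CypD KO libraries stood apart from 6 libraries with overlapping low levels. The ratio of group means between CypD KO and WT was 17.9, and the fitted rise was 3.83 ± 0.17 in log2(TPM + 1), a scale that understates changes of scarce genes (limma adjusted p = 9.49e-06). Behind these levels stood approximately 500 and 530 fragments in CypD KO and 17 to 33 fragments in each other library. CypD OE and Control differed by 0.15 ± 0.17 (limma adjusted p = 0.551), and Control and WT by -0.23 ± 0.17 (limma adjusted p = 0.393).

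*Timp2* was the most abundant of all 9 genes, with a mean of 178.8 TPM over the libraries, above 93.8% of the genes tested. WT had 119.13 and 122.97 TPM and CypD KO 295.44 and 298.58 TPM. Control had 145.55 and 145.94 TPM, and libraries labelled CypD OE 149.85 and 153.07 TPM. The 2 libraries of a group lay close together, and CypD KO stood at 2.45 times WT, a rise of 1.29 ± 0.03 (limma adjusted p = 1.17e-06). Control was also higher than WT, by 0.27 ± 0.03 (limma adjusted p = 0.00175). The small excess of libraries labelled CypD OE over Control, 0.06 ± 0.03, did not pass (limma adjusted p = 0.214).

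*Timp3* was at 11.69 and 12.24 TPM in WT, 22.48 and 21.15 TPM in CypD KO, 12.68 and 13.32 TPM in Control, and 6.90 and 7.17 TPM in libraries labelled CypD OE. No library of CypD KO or CypD OE overlapped with its comparison group, and they moved in opposite directions. The gene rose by 0.82 ± 0.08 in CypD KO relative to WT (1.82 times, limma adjusted p = 0.000182) and fell by 0.80 ± 0.08 in libraries labelled CypD OE relative to Control (limma adjusted p = 0.000333). WT and Control, the neighbours in the middle of the order, differed by 0.11 ± 0.08 (limma adjusted p = 0.333). The 8 fibroblast markers had the same order of groups in their summed level, with 34.16 to 37.27 TPM in CypD KO, 19.13 to 21.15 TPM in Control, 15.6 to 17.79 TPM in WT and 9.23 to 11.48 TPM in libraries labelled CypD OE. *Postn* made up most of it in CypD KO (34.77 and 31.22 TPM), *Col1a2* was lowest there (1.09 and 2.17 TPM, against 9.03 and 6.87 TPM in WT), and *Dcn* and *Thy1* were at 0 throughout. The part of these genes in the levels of the inhibitors was not tested.

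*Reck* followed another order. WT had 5.25 and 5.31 TPM, CypD KO 5.44 and 5.35 TPM, Control 6.62 and 5.91 TPM, and libraries labelled CypD OE 9.72 and 8.92 TPM. The libraries labelled CypD OE lay above all others and were higher than Control by 0.51 ± 0.10 (limma adjusted p = 0.00738) and than WT by 0.72 ± 0.10 (limma adjusted p = 0.0027). Between CypD KO and WT the difference was 0.03 ± 0.10 (limma adjusted p = 0.85), and its sign turned when libraries were rescaled by the median of ratios. Control, CypD KO and WT followed in this order, and none of these neighbours differed beyond its spread (limma adjusted p = 0.183 and 0.85).

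**Figure D2:**
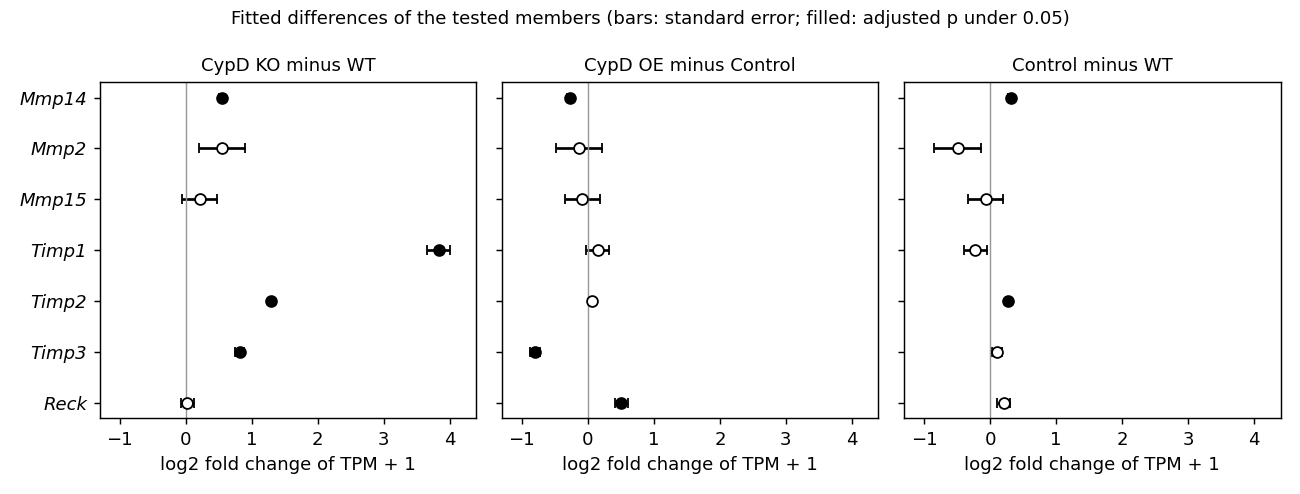
Fitted differences in log2(TPM + 1) (horizontal axis) with standard errors for the 7 genes that passed the minimum of 1 TPM, in 3 comparisons. Filled points have a limma adjusted p under 0.05: *Timp1*, *Timp2*, *Timp3* and *Mmp14* to the right in CypD KO minus WT, and *Timp3* and *Mmp14* to the left and *Reck* to the right in CypD OE minus Control.

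Of the 9 genes, 7 passed the minimum. In CypD KO against WT, 4 of the 7 passed the test and all 4 were higher, where 48.4% of all genes tested passed (30.1% higher and 18.4% lower). The median difference of the 7 genes was 0.548 on the log2 scale, against 0.0891 over all genes tested. With that many genes changed, passing the test was common and sets none of the 4 apart. The direction of calls over all genes depended on scaling: 4066 genes were higher and 2486 lower as deposited (62.1% higher), against 3187 higher and 3482 lower after rescaling by the median of ratios (47.8% higher), and the same 4 of these 9 genes were higher under both. In CypD OE against Control, 3 of the 7 passed, 1 higher and 2 lower, where 37.4% of all genes did, with medians of -0.0833 and 0.00214.

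In Control against WT, 2 of the 7, *Mmp14* and *Timp2*, were higher, where 24.2% of all genes passed, with medians of 0.111 and 0.0117. Like Control and WT, the remaining pairs of groups differ in both oxygen and cell line. The libraries labelled CypD OE differed from WT in 3 of the 7 genes (27.7% of all genes), with *Timp2* higher by 0.32, *Reck* higher by 0.72 and *Timp3* different by -0.69. CypD KO differed from Control in the same 4 genes as from WT (44% of all genes), and from libraries labelled CypD OE in 6 of the 7 (48.9% of all genes), with *Reck* lower and *Mmp15* not passing. The comparisons share libraries and are not independent of one another.

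The levels of the 5 proteinases and of the 4 inhibitors were also summed, without other metalloproteinases. The 5 proteinases summed to 104.2 and 111.08 TPM in WT, 161.18 and 154.99 TPM in CypD KO, 127.87 and 136.75 TPM in Control and 112.58 and 107.74 TPM in libraries labelled CypD OE. The 4 inhibitors summed to 140.1 and 143.43 TPM in WT, 382.57 and 390.42 TPM in CypD KO, 167.15 and 168.53 TPM in Control and 169.61 and 172.42 TPM in libraries labelled CypD OE. Inhibitor RNA per RNA of these 5 proteinases was 1.34 and 1.29 in WT, 2.37 and 2.52 in CypD KO, 1.31 and 1.23 in Control and 1.51 and 1.60 in libraries labelled CypD OE. The order of the sums depended on the choice of proteinases: with *Mmp11*, the second most abundant matrix metalloproteinase in WT and Control, added after the data were seen, the ratio was 0.950 and 0.923 in WT, 2.31 and 2.45 in CypD KO, 0.997 and 0.942 in Control and on average 1.55 in libraries labelled CypD OE, so that the inhibitors were the higher sum in 4 of 8 libraries. Among the 9 genes the sums are carried by few, since *Mmp14* made up 95.4% to 98.1% of the proteinase sum and *Timp2* 76.5% to 88.8% of the inhibitor sum. *Timp1* contributed 15.5% and 16.7% of the inhibitor sum in CypD KO and 1.38% to 2.88% elsewhere. The ratio of *Timp2* to *Mmp14*, partners in the activation of MMP2, was 1.91 and 1.99 in CypD KO and between 1.09 and 1.46 in the other libraries.

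**Figure D3:**
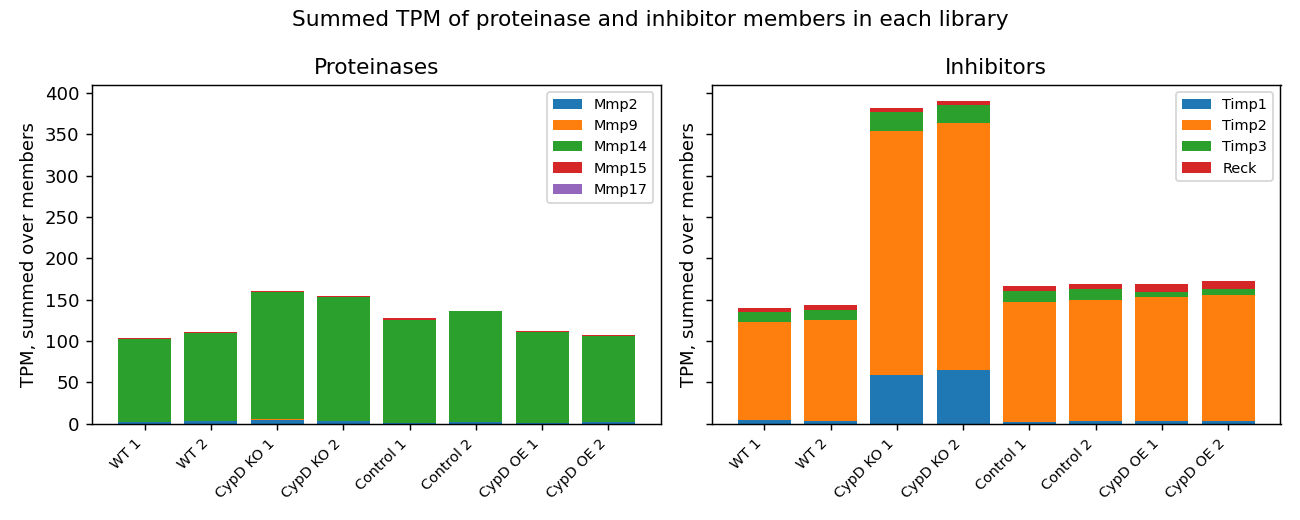
Summed TPM (vertical axes from 0) of the 5 proteinases (left) and the 4 inhibitors (right) in each of the 8 libraries, with a color for each gene. *Mmp14* fills nearly all of the left bars, and the right bars of CypD KO reach 382.57 and 390.42 TPM through *Timp2* and *Timp1*.

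The 9 genes are protein-coding and lie at separate places in the genome (GRCm39). *Mmp14* (ENSMUSG00000000957, 10 exons) lies at chr14:54668878-54682821, *Mmp15* at chr8:96078895-96101708, *Mmp17* at chr5:129661084-129688163, *Mmp9* at chr2:164780439-164797771 and *Reck* (ENSMUSG00000028476, 21 exons) at chr4:43875514-43944806. *Timp1* (ENSMUSG00000001131, chrX:20736316-20740976, 6 exons) lies within *Syn1* on the opposite strand and shares no exon bases with it, and *Syn1* was at 0.03 to 0.21 TPM. *Timp3* (ENSMUSG00000020044, chr10:86136236-86185371, 5 exons) shares 1734 exon bases with *Syn3*, a synapsin gene on the opposite strand, which was at 0.61 to 1.25 TPM. *Timp2* (ENSMUSG00000017466, chr11:118191887-118246566, 5 exons) shares 332 exon bases with *Cep295nl* on the same strand, at 0.32 to 1.9 TPM, and *Mmp2* (ENSMUSG00000031740, chr8:93553902-93580049, 13 exons) shares 860 with *Gm45472* on the opposite strand, at 0.14 to 0.75 TPM. Whether strand was used in counting is not given in the sources used here. Reads in bases shared with a gene on the opposite strand therefore cannot be assigned to either gene. *Timp2* and *Cep295nl* lie on the same strand, so strand could not separate reads in their shared bases. Of *Timp2*, *Timp3* and *Mmp2*, the scarcest is *Mmp2*, at 0.91 to 5.11 TPM. *Syn2*, which overlaps none of the 9 genes, was at 0.20 and 0.10 TPM in WT and 1.55 and 1.13 TPM in CypD KO, and it met the minimum through CypD KO alone, so no test is given.

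Sequences before the starts of *Timp1* and *Timp3* are shown because these inhibitors had the largest rise in CypD KO and the largest fall in libraries labelled CypD OE, and because the design varies oxygen. Each run is up to 250 bases before the start of the canonical transcript in GRCm39, 5′ to 3′ on the strand of the gene, with matches to the core of the hypoxia response element (ACGTG or GCGTG, searched on both strands) in capitals. For *Timp1* the last 5 bases before the start are left out, and the last 35 bases before the start lie in an exon of other *Timp1* transcripts.
Timp1, chrX:20736101-20736345, + strand: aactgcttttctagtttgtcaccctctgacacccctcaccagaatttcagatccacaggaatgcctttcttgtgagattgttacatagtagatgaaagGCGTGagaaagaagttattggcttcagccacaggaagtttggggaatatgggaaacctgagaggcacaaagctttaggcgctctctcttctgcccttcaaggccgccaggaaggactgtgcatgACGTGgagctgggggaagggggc
Timp3, chr10:86135986-86136235, + strand: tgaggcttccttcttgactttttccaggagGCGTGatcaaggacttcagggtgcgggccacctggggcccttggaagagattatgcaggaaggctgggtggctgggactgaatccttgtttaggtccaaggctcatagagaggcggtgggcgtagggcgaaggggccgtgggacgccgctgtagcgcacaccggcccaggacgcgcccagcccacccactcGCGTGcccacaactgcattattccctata
*Timp1* held GCGTG at 152 to 148 and ACGTG at 28 to 24 bases before its start, and *Timp3* held GCGTG at 220 to 216 and at 29 to 25 bases. The ACGTG of *Timp1* thus lies in sequence that other transcripts of the gene include. *Mmp9* was the other gene with a match, so that 3 of the 9 windows held the core, as did 41.3% of 21627 promoters. An AP-1 site (TGANTCA, both strands) was found in the window of *Mmp9* and not in the other 8, and in 6.19% of all promoters. Such matches describe the letters of the window and do not mark a binding site. Neither *Timp1* nor *Timp3* passed the test between Control and WT, whose values are given above.

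Genes whose levels ran most nearly parallel were sought by Pearson's r of log2(TPM + 1) over the 8 libraries, which share the 4 groups as their main source of variation. For *Timp1* these were *Ehbp1l1* (r = 0.9978), *Trim16* (0.9973) and *Scarb2* (0.9972), for *Timp2* *Tpm4* (r = 0.9992), *Ccn1* (0.9969) and *Mast2* (0.9969), and for *Timp3* *Epb41l4a* (r = 0.9971), *Ephx1* (0.9969) and *Pon3* (0.9929). *Mmp14* ran with *Erlec1* (r = 0.9925), *Vps13b* (0.9902) and *Rer1* (0.9886), and *Reck* with *Itpr1* (r = 0.989), *Tram2* (0.9856) and *Zfp595* (0.9845). The scarce genes had less close neighbours, led by *Ift46* for *Mmp2* (r = 0.9519) and by *Fars2* for *Mmp15* (r = 0.9365). In all, 1161 genes had an r over 0.9 with *Timp1* and 6 with *Mmp15*.

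Other matrix metalloproteinases and *Timp4* were mostly at or near 0, with 6 of 19 genes listed at 0 in every library and 3 reaching the minimum for testing. Of these 3, 2 were higher and 1 lower in CypD KO than in WT, where 48.4% of all genes passed, but 1 of the 2, *Mmp12*, met the minimum through CypD KO alone and had to be higher there. In CypD OE against Control 0 were higher and 1 lower (37.4% of all genes passed), and in Control against WT none of the 3 passed (limma, 0 also at an unadjusted p under 0.05). *Mmp11*, stromelysin 3, was the exception, at 43.24 and 44.24 TPM in WT, 39.86 and 42.14 TPM in Control, 4.41 and 4.08 TPM in CypD KO and 0.58 and 0.47 TPM in libraries labelled CypD OE. It was thus lower on both sides of the design, by -3.09 ± 0.08 in CypD KO (limma adjusted p = 1.49e-06) and by -4.78 ± 0.08 in CypD OE (limma adjusted p = 4.57e-07), whereas none of the 9 genes was lower past the threshold in both. *Mmp12*, macrophage elastase, was listed at 0 in both WT and both Control libraries and was at 1.88 and 1.92 TPM in CypD KO, with no test given for the reason above. *Mmp10*, stromelysin 2, named after its values were seen and not tested, was at 1.69 and 0.78 TPM in CypD KO and listed at 0 in the other 6 libraries. Beside these values, the summed level of the 6 macrophage markers was 1.93 to 2.33 TPM in CypD KO and 0.02 to 0.73 TPM elsewhere, with *Lyz2* at 1.85 and 1.80 TPM in CypD KO and *Adgre1* and *Cd14* at 0. Its part in the result was not tested.

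The genes of the ADAM and ADAMTS families, several of whose products TIMP3 inhibits, are next. Of 31 genes, 18 were tested, and 7 were higher and 4 lower in CypD KO than in WT (median 0.198, against 0.0891 over all genes), while 7 were higher and 1 lower in CypD OE than in Control (median 0.27, against 0.00214). *Adamts7*, 1 of the 7 higher in CypD KO and named after its values were seen, was at 1.76 and 1.19 TPM there. In the other libraries *Adamts7* was at 0.14 to 0.4 TPM, so it met the minimum through CypD KO alone and had to be higher there. *Adamts4*, an aggrecanase, was at 9.46 and 9.10 TPM in WT and 49.50 and 46.82 TPM in CypD KO (2.26 ± 0.09, limma adjusted p = 5.27e-06). *Adamts14*, a procollagen N-proteinase, was at 1.87 and 1.92 TPM in WT and 16.76 and 15.39 TPM in CypD KO (2.56 ± 0.13, limma adjusted p = 1.31e-05), and *Adamts20* fell there by 1.36 ± 0.10 (limma adjusted p = 6.94e-05). In libraries labelled CypD OE, *Adam12* was at 85.60 and 82.89 TPM against 13.60 and 14.51 TPM in Control (2.50 ± 0.07, limma adjusted p = 2.5e-06), and *Adamts5*, another aggrecanase, and *Adam23* rose by 1.45 and 1.07 (limma adjusted p = 0.000289 and 0.00203). In Control against WT, 2 of the 18 were higher and 4 lower. Over all genes tested, 48.4%, 37.4% and 24.2% passed in these 3 comparisons.

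Genes of the activation, cell-surface docking and uptake of these proteinases numbered 11. Of these, 9 were tested, and 8 were higher and 0 lower in CypD KO than in WT (median 1.02, against 0.0891 over all genes), while 0 were higher and 6 lower in CypD OE than in Control (median -0.487, against 0.00214). In Control against WT, 6 of the 9 were higher and 0 lower (median 0.357, against 0.0117). Over all genes tested, 30.1% were higher in the first comparison, 18.3% lower in the second and 12.1% higher in the third. Like the other related lists, this one was chosen with earlier results of these data known, so the counts and shares do not test it. The 3 genes that did not pass in CypD OE against Control were *Furin*, *Cd44* and *Pcsk7*, the last of which did not pass in CypD KO against WT either, and the latter 2 are named after their values were seen. *Furin*, the convertase that activates the MMP14 precursor, was at 15.33 and 11.69 TPM in WT and 42.83 and 41.58 TPM in CypD KO (1.59 ± 0.12, limma adjusted p = 8.53e-05). In libraries labelled CypD OE *Furin* was at 19.08 and 17.06 TPM against 13.74 and 14.33 TPM in Control, which did not pass (limma adjusted p = 0.0676). *Itgb3*, a subunit of the integrin that binds MMP2 at the cell surface, rose by 1.62 ± 0.11 in CypD KO (limma adjusted p = 4.46e-05), and its partner *Itgav* fell by 0.79 ± 0.06 in CypD OE (limma adjusted p = 9.94e-05). *Cav1*, the caveolin that takes part in MMP14 uptake, was at 6.70 and 7.35 TPM in WT, 40.45 and 42.91 TPM in CypD KO, 15.38 and 16.51 TPM in Control, and 5.50 and 4.79 TPM in libraries labelled CypD OE. *Bsg*, also known as EMMPRIN for its induction of metalloproteinases in neighbouring cells, was at 933.26 and 957.76 TPM in Control and 368.89 and 380.22 TPM in libraries labelled CypD OE (-1.33 ± 0.04, limma adjusted p = 1.52e-06). WT had 438.6 and 423.59 TPM of *Bsg* and CypD KO 852.6 and 894.44 TPM, so that libraries labelled CypD OE stood nearer to WT than to Control.

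Of 14 matrix substrates, 9 were tested, and 5 were higher and 2 lower in CypD KO than in WT (median 0.921, against 0.0891 over all genes), while 2 were higher and 3 lower in CypD OE than in Control (median 0.12, against 0.00214). *Fn1*, fibronectin, was at 28.40 and 31.06 TPM in WT and 288.58 and 286.49 TPM in CypD KO (3.23 ± 0.05, limma adjusted p = 6.54e-07), and *Lamb1*, a laminin chain, rose by 2.52 ± 0.08 (limma adjusted p = 3.13e-06). The 2 chains of type I collagen parted, with *Col1a1* at 2.22 and 1.66 TPM in WT and 38.52 and 41.12 TPM in CypD KO, and *Col1a2* at 9.03 and 6.87 TPM in WT and 1.09 and 2.17 TPM in CypD KO. In libraries labelled CypD OE both chains fell relative to Control, by 1.44 ± 0.21 and 1.54 ± 0.27 (limma adjusted p = 0.00237 and 0.00482), and *Col4a1*, of basement membrane collagen, rose by 0.66 ± 0.16 (limma adjusted p = 0.018). *Fn1* was also higher in CypD OE than in Control, by 0.51 ± 0.05, and in Control than in WT, by 0.55 ± 0.05 (limma adjusted p = 0.000524 and 0.000802). *Lamc1*, another laminin chain, is named after its values were seen. It was lower in CypD KO than in WT (-0.54 ± 0.08) and in CypD OE than in Control (-0.38 ± 0.08, limma adjusted p = 0.00198 and 0.0119). In Control against WT, 2 of the 9 were higher and 1 lower (median 0.291, against 0.0117). Over all genes tested, 48.4%, 37.4% and 24.2% passed in these 3 comparisons. *Col1a2* is also 1 of the fibroblast markers, whose sums are given with *Timp3*.

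**Figure D4:**
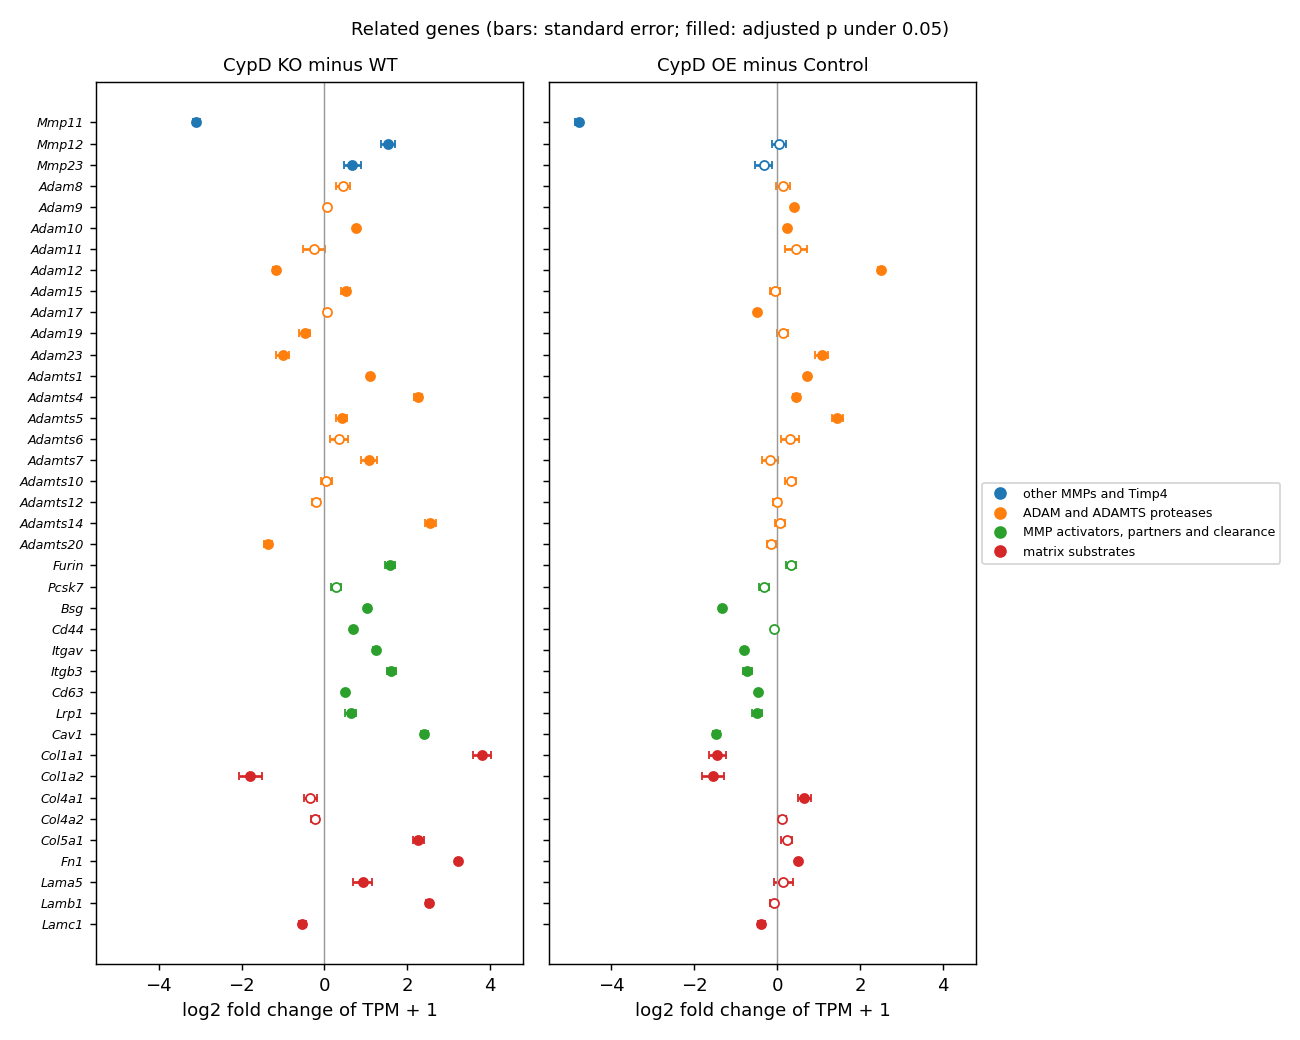
Fitted differences in log2(TPM + 1) (horizontal axes) with standard errors for tested genes of 4 lists, in CypD KO minus WT (left) and CypD OE minus Control (right). Filled points have a limma adjusted p under 0.05. The genes of activation, docking and uptake lie to the right in the left panel, and 6 of the 9 are filled and to the left in the right panel. *Mmp12* and *Adamts7* met the minimum for testing through CypD KO alone, and *Mmp11* lies far to the left in both.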

How the data were processed

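RNA was sequenced from 8 libraries of B16F10 cells in 4 groups, assigned from the sample titles and labels, with 0 value columns left unassigned. Per the submitters' processing notes and the study's methods, ribosomal RNA was depleted and paired reads were trimmed (Cutadapt 3.4), aligned to GRCm39 (STAR 2.7.8a) and quantified per gene (RSEM 1.3.1). What the authors deposited is TPM, with the same sum in each library, so that a rise of abundant transcripts lowers all other values. Their DESeq2 1.26.0 tests on counts were not used here.

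The 13526 genes that reached 1 TPM in 2 or more libraries were fitted on the log2(TPM + 1) scale by limma 3.58.1 (lmFit and eBayes with trend; R 4.3.3), with a mean for each of 4 groups and 4 residual degrees of freedom. Tests were two-sided, with Benjamini-Hochberg adjustment over all genes tested and a threshold of 0.05. An exact permutation test of 2 against 2 libraries cannot go below p = 0.333 and was not used. That replicates were separate cultures is not stated, so p-values measure the spread between these libraries, which may be technical. Depth was estimated from the steps of low TPM values. Of these, 80.1% to 86.2% lay within 0.15 of a whole fragment (30% for evenly spread values), and fragment numbers are approximate. The fit was tested on simulated data.

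The 9 genes, the related lists and the marker lists were chosen with earlier results of these data known. Other genes named are the 3 most correlated with each tested member (the first alone for *Mmp2* and *Mmp15*), those with the 3 largest differences in a list, overlapping genes and markers at 0. Promoters were cut from the GRCm39 genome at the canonical starts of its gene annotation. Alternatives were a pseudocount of 0.1, median-of-ratios rescaling, a minimum of 5 TPM or none, a replicate block, eBayes without trend, fits of 4 libraries and leaving out each library, and, added after seeing the data, *Mmp11* in the proteinase sum.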

Additional observations from a re-analysis of the deposited data

How the results depend on the processing

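Calls on the 9 genes did not depend on the settings tried: 4 were called in CypD KO against WT, 3 in CypD OE against Control and 2 in Control against WT under a pseudocount of 0.1, no minimum or a minimum of 5 TPM, median-of-ratios rescaling, a fit of the 4 libraries alone, eBayes without trend, and without each library in turn. With a replicate block the counts were again 4, 3 and 2, with 46.5%, 35% and 21.3% of all genes called, and no call changed. Same-numbered libraries correlated at 0.108, -0.00175 and -0.0186 in their deviations in these 3 comparisons. With 2 libraries a group, these values cannot show whether same-numbered libraries were handled together. Of 225 values of single genes, 218 kept direction and side of the threshold and 7 turned sign, none of them past the threshold. Median-of-ratios rescaling turned *Reck* in CypD KO against WT to -0.0697. The other 6 came from leaving out 1 library, over which *Mmp2* in CypD OE against Control ranged from -0.40 to 0.12, *Mmp15* from -0.46 to 0.30 and *Timp1* from -0.0541 to 0.35, and *Mmp15* in Control against WT from -0.44 to 0.32. A library decides the sign in each. Leaving out 1 library also moved *Mmp2*, without passing the threshold, between 0.13 and 0.96 in CypD KO against WT and between -0.91 and -0.07 in Control against WT. With *Mmp11* added to the proteinase sum, a choice made after seeing the data, the mean ratio of inhibitor to proteinase TPM went from 1.32 to 0.937 in WT and from 1.27 to 0.969 in Control, and the values in CypD KO (2.45 and 2.38) and CypD OE (1.55 and 1.55) moved by less than the spread. Over all genes, 3269 were called in Control against WT, and 2016 to 2140 without 1 library. The count in CypD OE against Control was 5057, and 3637 to 3859 without 1 library. A minimum of 5 TPM left out *Mmp2* and *Mmp15*. With 2 libraries a group and approximately 30 to 170 fragments behind *Mmp2* and *Mmp15*, their standard errors of 0.35 and 0.26 limit what could be detected.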
